A study of Danio rerio with 30 samples.

Results

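Red blood cells carry oxygen on haemoglobin, a complex of alpha and beta globin chains that each hold a haem group. Fish red cells keep their nucleus, and a dissected brain holds the blood of its vessels. In red cell precursors the transcription factors Gata1 and Klf1 switch on the genes of globin chains, haem synthesis and the red cell membrane. The 8 genes described here are markers of these cells, namely the transcription factor genes *gata1a* and *klf1*, *alas2* (the erythroid enzyme of the first step of haem synthesis), *slc4a1a* (band 3, the anion exchanger of the red cell membrane), and the adult globin genes *hbaa1*, *hbaa2*, *hbba1* and *hbba2*.

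The members were found by a single gene symbol in the array annotation, and where a gene had several such probe sets, that of highest mean was taken. This gave 6 of the 8 genes, of 19260 genes with a probe set of their own, and the array holds 75212 probe sets in all. The remaining 2 genes lie only on probe sets that carry several symbols. A pair of probe sets is shared by *hbaa1* and si:ch211-5k11.8, and 1 is shared by *hbba1*, *ba1l* and *ba2*, so their values are given for the shared probe set and not for the gene. In the RefSeq gene order *hbaa2*, *hbba2*, *ba1l*, *hbaa1* and *hbba1* are neighbours. Globin genes are similar copies, and how far a probe of one also binds RNA of another is not given in the sources used here.

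RNA of the whole telencephalon of adult zebrafish (labelled 3 to 5 months old) was hybridised to Affymetrix Zebrafish Gene 1.0 ST arrays. The methods give wild-type fish of the AB/EK strain, or transgenic lines, for all experiments and do not say which the arrays used. They also give a higher age range than the labels. Skull injury, a micro-knife passed vertically through the skull into the medial telencephalon, was examined at 1, 2, 3 and 7 days post injury (dpi), and so was nostril injury, a glass capillary entered through the nostril. Both wounds were made in both hemispheres. Each injured group had 3 replicates, except skull injury at 3 dpi with 4, and the reference was 4 replicates of intact fish. The 30 arrays gave 29 replicates, since those of intact replicate 1 include a technical repeat, which was averaged with it. The labels do not say whether replicates were single fish or pools, and a p-value measures the spread between these samples only.

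Values are log2 intensities, and a difference of 1 is a 2-fold change. Array medians lay between 4.22 and 4.35 and replicates of a group correlated between 0.963 and 0.988. Markers of the labelled tissue were well above these medians. The pallial genes *emx3*, *eomesa* and *tbr1b* averaged 8.14, 8.62 and 9.84, and the subpallial genes *dlx2a* and *dlx5a* averaged 8.97 and 10.09. "Rose" and "fell" are used only of an adjusted p under 0.05 (limma over all 9 groups, Benjamini-Hochberg over the 40670 probe sets with a linear mean above 20, or 4.32 on the log2 scale, in at least 1 group). In whole tissue, fewer cells of a type and less RNA per cell cannot be told apart.

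The red blood cell genes that passed the test did so on the first day after skull injury. The transcription factor gene *klf1* rose 1.90-fold, *gata1a* rose 1.94-fold and *alas2* rose 2.12-fold over the intact telencephalon, while *slc4a1a* and the globin genes did not pass the test. No member passed it at 2, 3 or 7 dpi after skull injury, or at any time after nostril injury. The plot of replicate values by time shows this for each gene.

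**Figure D1:**
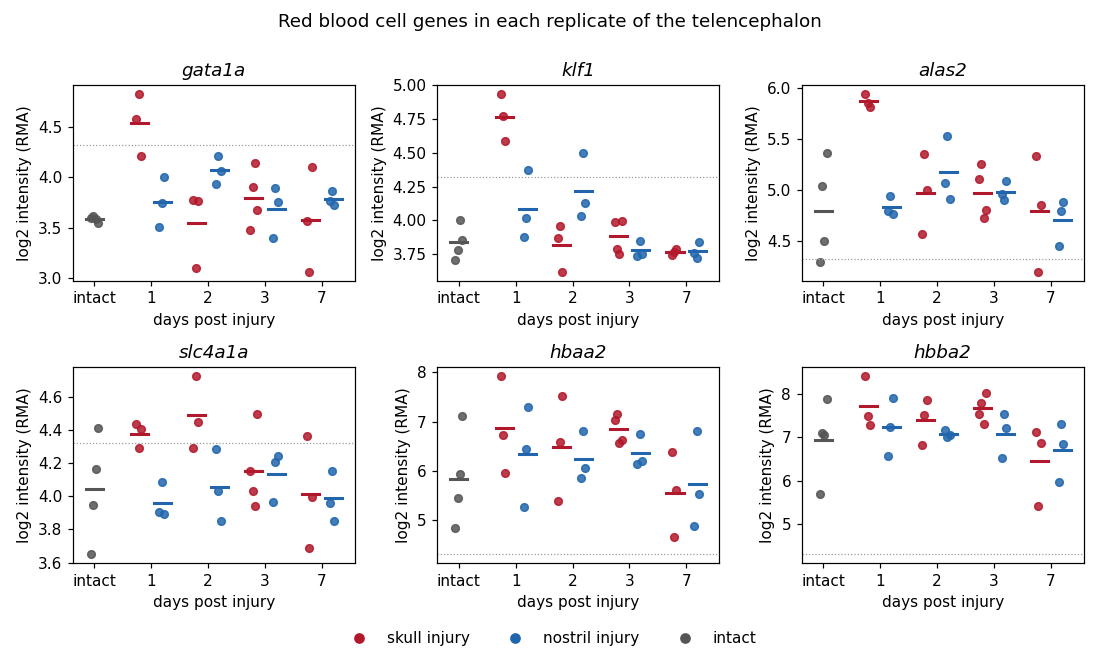
Log2 intensity of the 6 red blood cell genes with their own probe set (vertical axes) in each replicate, by days post injury. Points are replicates, bars are group means, skull injury stands left of nostril injury at each time, and the dotted line marks the linear mean of 20 that at least 1 group had to exceed to be tested. The skull injury points of *klf1* and *alas2* at 1 dpi lie above all intact points, whereas those of *hbaa2* and *hbba2* overlap with them.

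Of the transcription factor genes, *klf1* read 4.94, 4.77 and 4.59 in skull injury at 1 dpi, against 3.71, 3.78, 4.005 and 3.86 in the intact telencephalon. All 3 injured replicates were above all 4 intact ones, and the injured group also lay above every replicate of all other groups. The difference was 0.93 (SE 0.13, adjusted p = 0.000327). *gata1a*, which starts the erythroid programme and is also used by thrombocyte precursors, read 4.58, 4.83 and 4.21, against 3.60, 3.61, 3.58 and 3.55 in intact fish. The groups did not overlap, and the SD of the intact replicates was 0.028. The technical arrays of intact replicate 1 alone read 3.52 and 3.68 for *gata1a*, 0.162 apart, so that this small SD is no measure of precision. Between the same arrays *klf1* differed by 0.307 and *slc4a1a* by 0.641. The difference was 0.96 (SE 0.21, adjusted p = 0.0252).

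*alas2* read 5.95, 5.86 and 5.82 in skull injury at 1 dpi, against 4.29, 5.04, 4.50 and 5.36 in intact telencephalon. The injured replicates were tightly grouped and all higher, whereas the intact ones were spread over a 2.11-fold range. Its difference was 1.08 (SE 0.24, adjusted p = 0.0346). *slc4a1a* read 4.44, 4.29 and 4.41 against 3.65, 3.95, 4.16 and 4.41 in intact fish. One intact replicate reached the injured range, and the difference of 0.33 (SE 0.17) did not pass the test (adjusted p = 0.502).

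In this comparison 3 of the 6 measured members rose, against 0.541% of all tested probe sets that rose and 0.612% that changed in either direction. For the same 3 members every injured replicate lay above every intact replicate, which held for 8.06% of all tested probe sets. The median difference of the members was 0.94, against 0.01 for all tested probe sets. These counts are not independent of the choice of genes, since the members were chosen with earlier results of these data known. The paper lists the mouse counterparts of *gata1a*, *klf1* and *alas2* under erythrocyte differentiation. It gives that term as enriched only after skull injury at 1 dpi, from these same arrays. The filter also bears on the counts. *klf1* and *gata1a* passed it only through skull injury at 1 dpi, and *slc4a1a* only through skull injury at 1 and 2 dpi, so that their place among the tested genes was set by the group in which they were high. With no filter the adjusted p was 0.0006 for *klf1*, 0.046 for *gata1a* and 0.063 for *alas2*, whose call was lost. With only the compared groups in the fit the *alas2* call was lost as well (adjusted p = 0.156). The intact means of *klf1* and *gata1a* were 14.3 and 11.996 on the linear scale, and no background level was used here.

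The *klf1* call held without any single replicate (adjusted p up to 0.00814). The calls of *gata1a* and *alas2* did not. That of *gata1a* was lost without any 1 of the 4 intact replicates and without skull injury replicate 1 or 2 (adjusted p up to 0.211). That of *alas2* was lost without intact replicate 1 or 3 and without any 1 of the skull injury replicates (adjusted p up to 0.180). Without intact replicate 1 or 3, or without skull injury replicate 1 or 2, only 1 member, *klf1*, passed.

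For both globin genes the 4 intact replicates spanned more than the means of all 9 groups did. *hbaa2*, an adult alpha globin gene, read 7.92, 6.73 and 5.96 in skull injury at 1 dpi, against 4.85, 5.46, 5.95 and 7.12 in intact fish. The groups overlapped, the intact replicates alone spanned a 4.83-fold range, and the difference was 1.03 (SE 0.58, adjusted p = 0.550). *hbba2*, an adult beta globin gene, read 8.41, 7.49 and 7.27 against 5.69, 7.11, 7.06 and 7.89 in intact fish. It overlapped as well, with an intact range of 4.58-fold and a difference of 0.79 (SE 0.45, adjusted p = 0.559). The 95% interval of the *hbaa2* difference ran between -0.17 and 2.22, so that a change as large as that of *alas2* lies inside it. The SD within groups was 0.82 for *hbaa2* and 0.64 for *hbba2*, above that of 98.6% and 96.1% of all tested probe sets. For *klf1* it was 0.16, above that of 18.7%, and the median over all tested probe sets was 0.23.

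The other probe set of *hbaa2* read 7.58, 6.09 and 6.06 in skull injury at 1 dpi, against 4.30, 5.25, 5.57 and 6.75 in intact fish, with a difference of 1.11 (SE 0.55, adjusted p = 0.488). The first of the probe sets shared by *hbaa1* and si:ch211-5k11.8 read 11.96, 11.91 and 11.71, against 10.79, 11.45, 11.50 and 11.70 in intact fish. The second read 12.72, 12.70 and 12.47, against 11.54, 12.23, 12.21 and 12.42. On both, all injured replicates were above all intact ones, as for 8.06% of all tested probe sets. The differences were 0.50 (SE 0.19, adjusted p = 0.329) and 0.53 (SE 0.19, adjusted p = 0.282), and neither passed the test. The probe set shared by *hbba1*, *ba1l* and *ba2* read 5.49, 5.37 and 5.21, against 4.71, 4.93, 4.94 and 5.23, and differed by 0.41 (SE 0.18, adjusted p = 0.437). Every adult globin probe set thus had a higher mean in skull injury at 1 dpi than in the intact telencephalon, and none of them rose.

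**Figure D2:**
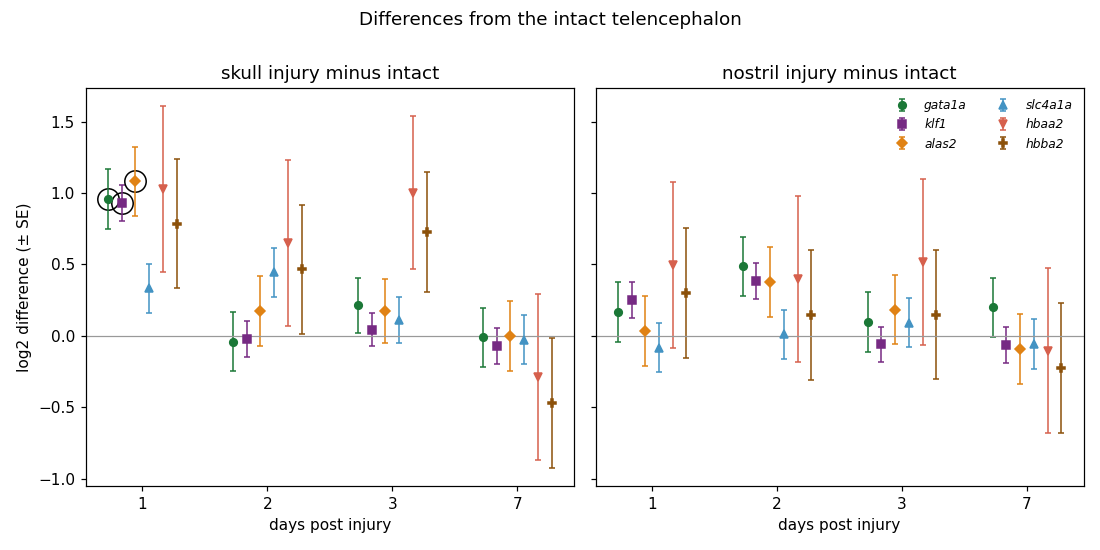
Log2 difference from the intact telencephalon (vertical axis, ± SE of the limma fit) for each red blood cell gene by days post injury, after skull injury (left) and nostril injury (right). Open circles mark the 3 differences with an adjusted p under 0.05, all at 1 dpi after skull injury, and the bars of *hbaa2* and *hbba2* are the widest of the 6 genes.

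After nostril injury at 1 dpi no member passed the test. *klf1* read 3.88, 4.01 and 4.37, *gata1a* read 3.51, 3.75 and 4.001, and *alas2* read 4.79, 4.94 and 4.76. All 3 genes overlapped with the intact replicates. For *klf1*, nostril injury replicates 2 and 3 lay above every intact replicate, and the difference was 0.25 (SE 0.13, 95% interval -0.0097 to 0.51). The differences over the 6 members ran between -0.08 for *slc4a1a* and 0.49 for *hbaa2*, and 0 of the 6 were called, against 0.836% of all tested probe sets. None of the 6 reached an unadjusted p under 0.05 either.

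At 2 dpi after nostril injury *klf1* read 4.03, 4.50 and 4.13 and *gata1a* read 3.94, 4.21 and 4.07, which placed all replicates of both genes above all intact replicates, as for 7.55% of all tested probe sets. The differences were 0.38 (SE 0.13, adjusted p = 0.190) for *klf1* and 0.49 (SE 0.21, adjusted p = 0.329) for *gata1a*. Neither passed the test, and their unadjusted p were 0.00567 and 0.0280. *alas2* differed by 0.38 (SE 0.24, adjusted p = 0.552), with overlap. The counts of called members after nostril injury were 0 of 6 at 2 dpi, against 0.529% of all tested probe sets, 0 of 6 at 3 dpi, against 0.0861%, and 0 of 6 at 7 dpi, against 1.75%. At 7 dpi *gata1a* read 3.76, 3.86 and 3.73, again above all intact replicates, although the difference was 0.20 and did not pass the test. The share of all tested probe sets without overlap was not counted at 7 dpi.

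The direct comparison of skull with nostril injury at 1 dpi sets the whole injuries against each other. They differ in tool as well as route. The paper also reports a larger volume for the skull wound and places damage of the ventricle only there. These differences cannot be told apart here. *klf1* was 0.68 higher after skull injury (SE 0.13, 95% interval 0.40 to 0.96, adjusted p = 0.0999), *alas2* was 1.05 higher (SE 0.26, adjusted p = 0.288), *gata1a* 0.79 higher (SE 0.22, adjusted p = 0.414) and *slc4a1a* 0.42 higher (SE 0.18, adjusted p = 0.712). For these 4 genes every skull injury replicate lay above every nostril injury replicate, which held for 8.54% of all tested probe sets. *hbaa2* and *hbba2* differed by 0.53 (SE 0.62) and 0.49 (SE 0.48), with overlap. No member passed the test, which called 0.0344% of all probe sets here, and 4 of the 6 had an unadjusted p under 0.05, against 6.57% of all tested probe sets. *klf1* and *gata1a* passed the filter only through skull injury at 1 dpi, and *slc4a1a* only through skull injury at 1 and 2 dpi. Both counts of 4 are therefore not independent of the group compared, and the shares of all probe sets are no measure for them. Without nostril injury replicate 3, the highest of its group for *klf1*, 1 member passed, *klf1* (adjusted p = 0.0160, and 0.0116 to 0.496 over all alternatives).

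At 2 dpi the means of the transcription factor genes were lower after skull than after nostril injury. *klf1* read 3.87, 3.96 and 3.62 after skull injury and 4.03, 4.50 and 4.13 after nostril injury, a difference of -0.40 (SE 0.13). *gata1a* read 3.77, 3.10 and 3.76 after skull injury and 3.94, 4.21 and 4.07 after nostril injury, a difference of -0.53 (SE 0.22). The skull injury replicates lay below those of nostril injury for both genes, as for 4.82% of all tested probe sets, but the adjusted p was 1 for both, as 0% of all probe sets were called at this time. *slc4a1a* stood the other way, with 4.29, 4.72 and 4.45 after skull injury and 4.29, 4.03 and 3.85 after nostril injury, and a difference of 0.43 (SE 0.18, adjusted p = 1). At 3 dpi 0 of the 6 members differed between the injuries, against 3.59% of all probe sets, and at 7 dpi 0 of 6, against 0%.

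After skull injury *klf1* was lower at each later time than at 1 dpi. Relative to 1 dpi, *klf1* fell by 0.95 at 2 dpi (SE 0.13, adjusted p = 0.00404), by 0.88 at 3 dpi (SE 0.13, adjusted p = 0.000497) and by 1.00 at 7 dpi (SE 0.13, adjusted p = 0.000525). Its means over intact, 1, 2, 3 and 7 dpi were 3.84, 4.76, 3.82, 3.88 and 3.77. No replicate of the later times reached the lowest replicate of 1 dpi, which held for 6.94% of all tested probe sets at 2 dpi, 12.2% at 3 dpi and 10.4% at 7 dpi. The comparisons of 2 with 1 dpi were added after the values were seen. The call at 2 dpi was lost without skull injury replicate 1 of 1 dpi or replicate 3 of 2 dpi (adjusted p up to 0.0640). With only the compared groups in the fit, the *klf1* calls against 1 dpi were lost (adjusted p = 0.312 at 2 dpi, 0.0658 at 3 dpi and 0.0606 at 7 dpi).

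*gata1a* had means of 3.58, 4.54, 3.54, 3.80 and 3.57 over intact, 1, 2, 3 and 7 dpi after skull injury. Relative to 1 dpi it differed by -0.998 at 2 dpi (SE 0.22, adjusted p = 0.333), fell by 0.74 at 3 dpi (SE 0.21, adjusted p = 0.0249) and fell by 0.97 at 7 dpi (SE 0.22, adjusted p = 0.0450). The replicates of each later time lay below those of 1 dpi, as for 6.94%, 12.2% and 10.4% of all tested probe sets at 2, 3 and 7 dpi. *alas2* had means of 4.80, 5.88, 4.97, 4.97 and 4.79. It differed by -0.91 at 2 dpi (SE 0.26, adjusted p = 0.872), fell by 0.91 at 3 dpi (SE 0.24, adjusted p = 0.0203) and differed by -1.08 at 7 dpi (SE 0.26, adjusted p = 0.0580), each time with no overlap. The same shares of all tested probe sets apply to *alas2*.

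Of the 6 members, 1 fell at 2 dpi relative to 1 dpi, against 0.0172% of all tested probe sets, 3 fell at 3 dpi, against 7.91%, and 2 fell at 7 dpi, against 0.334%. The share of all probe sets that fell at 3 dpi was large, and the member count at that time has to be read against it. The call of *gata1a* at 3 dpi was lost without replicate 1 or 2 of 1 dpi or replicate 1 of 3 dpi (adjusted p up to 0.131), and that at 7 dpi without replicate 1 or 2 of either time (adjusted p up to 0.264). That of *alas2* at 3 dpi was lost without any 1 replicate of 1 dpi or replicate 3 of 3 dpi (adjusted p up to 0.0666). All these comparisons share the 1 dpi replicates of skull injury, which are also those of the comparison with intact fish. *klf1* and *gata1a* passed the filter only through this 1 dpi group, so that the counts of falls from it are not independent of the filter. With no filter the *gata1a* call at 7 dpi was lost (adjusted p = 0.0813). After nostril injury 0 of the 6 members passed the test relative to 1 dpi, at 2 dpi (0.509% of all probe sets), 3 dpi (0.268%) or 7 dpi (5.30%). *klf1* read 3.74, 3.84 and 3.75 at 3 dpi and 3.75, 3.72 and 3.84 at 7 dpi. All these replicates lay below those of nostril injury at 1 dpi (3.88, 4.01 and 4.37). How many of all tested probe sets did so was not counted. At both times 1 member had an unadjusted p under 0.05, as had 3507 of the 40670 tested probe sets at 3 dpi and 7790 at 7 dpi.

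At 3 dpi after skull injury the means of *hbaa2* and *hbba2* were close to those of 1 dpi. *hbaa2* had means of 5.84, 6.87, 6.49, 6.85 and 5.56 over intact, 1, 2, 3 and 7 dpi, and *hbba2* of 6.94, 7.72, 7.40, 7.66 and 6.47. At 3 dpi *hbaa2* read 7.03, 7.15, 6.58 and 6.63, above 3 of the 4 intact replicates, and differed from intact by 1.00 (SE 0.54, adjusted p = 0.246). *hbba2* read 7.55, 7.78, 7.30 and 8.03 and differed by 0.73 (SE 0.42, adjusted p = 0.283). At this time *klf1*, *gata1a* and *alas2* differed from intact by 0.04, 0.21 and 0.17 (SE 0.12, 0.19 and 0.23). The shared globin probe sets were near the intact level at 3 dpi, with differences from intact of 0.023 and 0.035 (SE 0.18 and 0.17) for those of *hbaa1* and of -0.013 (SE 0.17) for that of *hbba1*. Relative to 1 dpi they differed at 3 dpi by -0.48, -0.50 and -0.42 (adjusted p = 0.108, 0.0893 and 0.144), while *hbaa2* and *hbba2* differed by -0.024 and -0.058. On the shared probe sets all replicates of 3 dpi lay below those of 1 dpi, as for 12.2% of all tested probe sets. The other *hbaa2* probe set had its highest mean at 3 dpi, at 6.70, against 6.57 at 1 dpi. The courses of the probe sets were not tested against each other. Between 7 and 1 dpi the globin genes differed by -1.32 for *hbaa2* (SE 0.62, adjusted p = 0.492) and -1.26 for *hbba2* (SE 0.48, adjusted p = 0.356), and neither passed the test. Against intact fish, 0 of the 6 members were called at 2 dpi after skull injury (0.302% of all probe sets), 0 of 6 at 3 dpi (7.93%) and 0 of 6 at 7 dpi (0.708%).

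*slc4a1a* was highest at 2 dpi after skull injury, with 4.29, 4.72 and 4.45, against 3.65, 3.95, 4.16 and 4.41 in intact fish. The difference was 0.44 (SE 0.17, adjusted p = 0.441), with overlap. Over all groups its means lay between 3.96 in nostril injury at 1 dpi and 4.49, a range smaller than that of any other member.

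**Figure D3:**
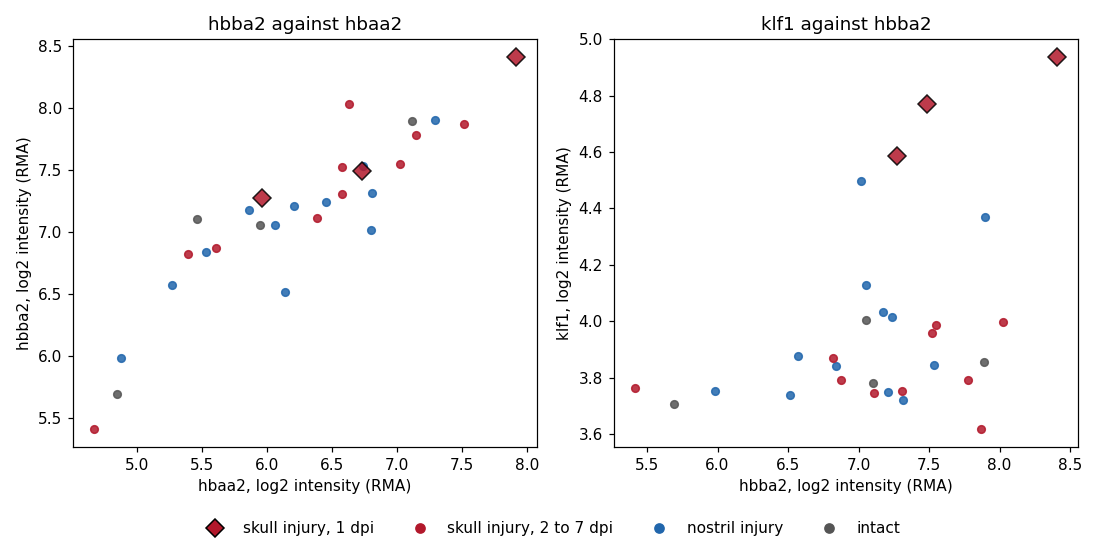
Log2 intensity of *hbba2* against *hbaa2* (left) and of *klf1* against *hbba2* (right), with 1 point per replicate over all 29 replicates and diamonds for skull injury at 1 dpi. The globin genes lie along 1 line with replicates of all groups mixed, while for *klf1* the 3 diamonds lie above all other points at any level of *hbba2*.

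Within groups the members did not vary together as 1 block. The globin genes *hbaa2* and *hbba2* correlated with r = 0.90 and rho = 0.88 over the 29 replicates, with r = 0.88 without the 2 replicates farthest from the *hbaa2* median, and with r = 0.86 for the deviations from the group means. Replicates of one group that were high in one globin gene were thus high in the other. The deviations of *alas2* followed the globin genes (r = 0.63 with *hbaa2* and 0.66 with *hbba2*), and those of *slc4a1a* did so as well (0.51 and 0.70). Those of *klf1* and *gata1a* had a correlation of 0.09 with each other and of 0.31 to 0.39 with the globin genes. Both genes have a low signal. Their SD within groups was 0.16 and 0.28, while the technical arrays of intact replicate 1 differed by 0.307 and 0.162. How far measurement error lowers the correlations of these genes was not tested. Over all 29 replicates *klf1* correlated with *gata1a* (r = 0.70, rho = 0.43) and with *alas2* (r = 0.68, rho = 0.40). Without skull injury at 1 dpi these r were 0.34 and 0.28 over the other 26 replicates. These correlations are descriptions, the replicates share arrays and injury groups, and probes of the globin genes may share RNA.

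Of all 14366 other tested genes with a symbol of their own, the ones most like the mean of the 6 standardised members over the 29 replicates were *fam78ab* (r = 0.69), *tnfaip6*, *dhrs13b.2*, *cd68*, *trpv1* and *coro1a* (r = 0.67). Those most like the mean of the 2 globin genes were *ifi27.6* (r = 0.69), *trip10a*, *uqcc1*, *sall3a*, *MARCO* and *dhrs13b.2* (r = 0.62). None of them is a red cell gene of the lists used here. *coro1a* and *cd68* are known in leukocytes and macrophages. For the deviations from the group means, the r of the first set with the members ran from 0.09 (*trpv1*) to 0.46 (*fam78ab*). It was 0.26 for *coro1a* and 0.40 for *cd68*. That of the second set with the globin genes ran from 0.41 (*dhrs13b.2*) to 0.72 (*uqcc1*).

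Leukocyte markers were higher in skull injury at 1 dpi, and also in other injured groups. Of 4 tested general leukocyte markers, 4 rose in skull injury at 1 dpi, against 0.612% of all tested probe sets called. The differences were 1.86 for *coro1a* (SE 0.25), 1.28 for *lcp1* (SE 0.23), 1.65 for *laptm5* (SE 0.22) and 1.16 for *spi1b* (SE 0.22), with adjusted p between 0.00029 and 0.00832. The calls of *lcp1* and *spi1b* were lost without skull injury replicate 1, and that of *spi1b* also without replicate 2 (adjusted p up to 0.128). Their summed linear level, with *ptprc*, was 702 to 1014 in skull injury at 1 dpi, 572 to 694 in nostril injury at 1 dpi and 276 to 355 in intact fish. *ptprc* itself, which encodes the defining leukocyte antigen CD45, was under the minimum in all groups. In nostril injury at 1 dpi 3 of the 4 markers rose (*coro1a*, *laptm5* and *spi1b*), against 0.836% of all tested probe sets called. Between skull and nostril injury at 1 dpi 0 of the 4 were called, against 0.0344% of all tested probe sets. All 4 rose in skull injury at 3 dpi (7.93% of all tested probe sets called) and in nostril injury at 2 dpi (0.529%), and 3 in skull injury at 2 dpi (0.302%). The calls at 2 and 3 dpi were not refitted with single replicates left out. The calls in nostril injury at 1 dpi were lost without nostril injury replicate 2 for all 3 markers, without replicate 1 for *coro1a* and *spi1b*, without intact replicate 1 or 2 for the same pair, and without intact replicate 3 or 4 or nostril injury replicate 3 for *spi1b* (adjusted p up to 0.179).

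Thrombocytes, the nucleated clotting cells of fish, share *gata1a*, *gfi1b* and *nfe2* with red cells. Of 4 tested thrombocyte markers 1 rose in skull injury at 1 dpi, *f13a1b* (coagulation factor XIII, also known in macrophages), which read 6.46, 6.77 and 5.20 against 4.36, 4.45, 4.63 and 4.23 in intact fish. The difference was 1.72 (SE 0.29, adjusted p = 0.00218), and the call was lost with only the compared groups in the fit (adjusted p = 0.104). *f13a1b* also rose in nostril injury at 1 dpi, with 6.03, 5.34 and 6.01 and a difference of 1.37 (SE 0.29, adjusted p = 0.0167), a call lost without nostril injury replicate 1 or 3 (adjusted p up to 0.103). *nfe2* differed by 0.03 (SE 0.17), the integrin gene *itga2b* and *gp9* were under the minimum in all groups, and *mpl* had no probe set of its own. Of the 4 tested markers 2 had an unadjusted p under 0.05 in skull injury at 1 dpi, against 10.6% of all tested probe sets. At 3 dpi after skull injury 2 of the 4, *gp1bb* and *f13a1b*, fell relative to 1 dpi, against 7.91% of all tested probe sets. These later calls were not refitted with single replicates left out. The summed linear level of the 6 measured markers was 198 to 256 in skull injury at 1 dpi and 147 to 178 in intact fish. Of 5 tested microglia and macrophage markers 2 rose in skull injury at 1 dpi, *mpeg1.1* and *csf1ra*, and of 4 neutrophil markers 1 rose, *csf3r*. The *csf1ra* call was lost without skull injury replicate 1 or 2, that of *mpeg1.1* also without replicate 3 or intact replicate 1, and that of *csf3r* without skull injury replicate 1 or 2 or intact replicate 1, 3 or 4 (adjusted p up to 0.351). Of the microglia and macrophage markers 0 rose in nostril injury at 1 dpi and 3 at 2 dpi (0.529% of all tested probe sets called). After skull injury 2 rose at 2 dpi (0.302%) and 3 at 3 dpi (7.93%), where the neutrophil marker *ncf1* rose too. The calls at 2 and 3 dpi were not refitted in this way. Vessel markers gave 0 of 6 calls at 1 dpi after either injury. Of all tested probe sets 0.612% were called in skull injury at 1 dpi and 0.836% in nostril injury at 1 dpi. Of 7 T and B cell markers only *lck* passed the filter, and it was not called. The part of leukocytes, macrophages and thrombocytes in the higher *klf1*, *gata1a* and *alas2* values was not tested.

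Of a wider set of 59 tested genes of red cell formation and function 0 were called in skull injury at 1 dpi, where 0.612% of all tested probe sets were. There, 9 of the 59 had an unadjusted p under 0.05, against 10.6% of all tested probe sets, and their median difference was 0.04. After nostril injury at 1 dpi 0 of the 59 were called and 4 had an unadjusted p under 0.05, against 10.2%. The set was not tested against the members. Their differences lay between -0.65 and 0.64 in skull injury at 1 dpi, as the plot of red cell and haem genes at 1 dpi shows.

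**Figure D4:**
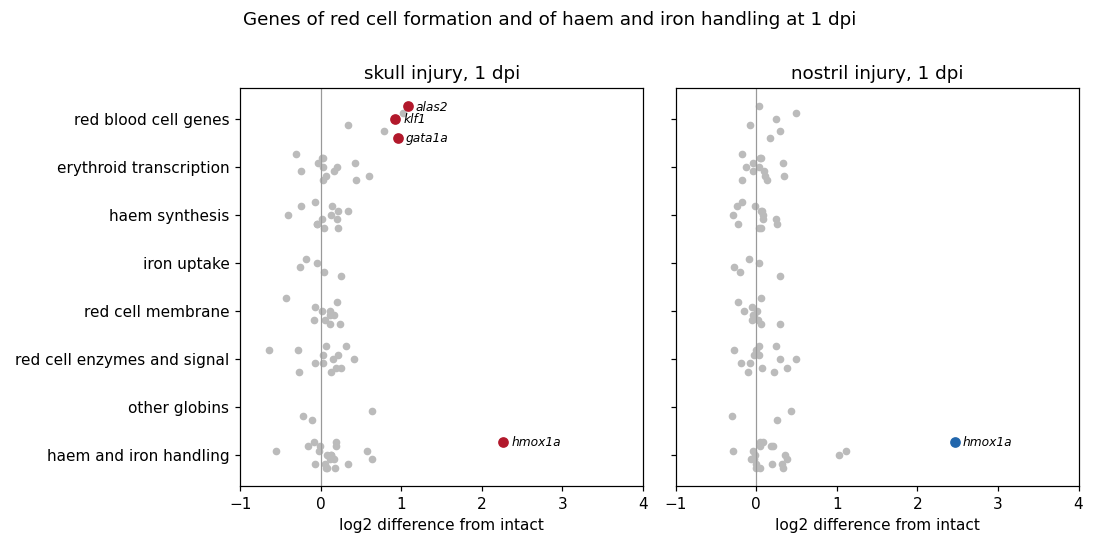
Log2 difference from the intact telencephalon at 1 dpi (horizontal axes) for every tested gene of each list (rows), after skull injury (left) and nostril injury (right). Large coloured points with a name have an adjusted p under 0.05 and grey points do not. In the lists beside the red blood cell genes the one coloured point on either side is *hmox1a*.

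Among erythroid transcription factors, 0 of 13 tested genes were called. *gfi1b*, a repressor gene of red cell and thrombocyte precursors, read 5.83, 5.50 and 4.89 in skull injury at 1 dpi, against 4.61, 4.89, 4.64 and 5.07 in intact fish, and differed by 0.60 (SE 0.21, adjusted p = 0.262). *bcl11aa*, known as a globin switching factor in mammals and also expressed in neurons, differed by 0.43 (SE 0.13, adjusted p = 0.193), *klf6a* by 0.43 (SE 0.17) and *klf17* by -0.24 (SE 0.19). In haem synthesis 0 of 13 were called. *alas1*, which encodes the housekeeping form of the enzyme encoded by *alas2*, differed by -0.40 (SE 0.14, adjusted p = 0.287), opposite in sign to *alas2*. *urod* and *cpox*, later steps of the pathway, differed by 0.34 (SE 0.18) and 0.22 (SE 0.18).

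Iron uptake gave 0 of 5 calls, with -0.04 (SE 0.18) for the transferrin receptor gene *tfr1b* and 0.26 (SE 0.14) for the iron transporter gene *slc11a2*. The red cell membrane and its skeleton gave 0 of 11, with 0.20 (SE 0.18) for *rhag*, the Rh-associated glycoprotein gene, and 0.12 (SE 0.09) for *dmtn*, the gene with the highest mean of that list, which neurons also express. Red cell enzymes and signals gave 0 of 14, with 0.42 (SE 0.19, adjusted p = 0.430) for *cahz*, a carbonic anhydrase gene of zebrafish red cells, 0.32 (SE 0.13) for *gpx1a* and 0.03 (SE 0.17) for *prdx2*. Several genes of these lists are also expressed in brain cells. Of 11 embryonic and other globin genes 3 were tested and 0 called. *hbae4* read 5.61, 5.04 and 4.92 in skull injury at 1 dpi, against 4.34, 4.63, 4.59 and 4.63, a difference of 0.64 (SE 0.30, adjusted p = 0.461). All its injured replicates lay above the intact ones, as for 8.06% of all tested probe sets.

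Cells that take up haemoglobin break down its haem with haem oxygenase and store the iron in ferritin. Of 21 tested genes of this handling, 1 rose at 1 dpi after either injury, the haem oxygenase gene *hmox1a*. The share of all tested probe sets called was 0.612% after skull and 0.836% after nostril injury. The values of *hmox1a* follow. It read 9.33, 9.49 and 8.14 in skull injury at 1 dpi and 9.15, 8.85 and 9.55 in nostril injury at 1 dpi, against 6.24, 6.53, 6.55 and 7.56 in intact fish. Neither injured group overlapped with intact. After skull injury this held for 8.06% of all tested probe sets, and after nostril injury that share was not counted. The difference was 2.27 after skull injury (SE 0.34, adjusted p = 0.000985) and 2.47 after nostril injury (SE 0.34, adjusted p = 0.000242). The call after skull injury was lost with only the compared groups in the fit (adjusted p = 0.0687). Skull and nostril injury differed by -0.20 (SE 0.37, adjusted p = 0.972).

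At 2 dpi *hmox1a* remained higher after nostril injury, with 9.42, 8.60 and 8.13 and a difference from intact of 2.00 (SE 0.34, adjusted p = 0.00583). The ferritin heavy chain-like gene *fthl29* rose at this time, with 6.35, 7.51 and 5.23 in nostril injury against 3.04, 2.74, 2.85 and 2.86 in intact fish, a difference of 3.49 (SE 0.59, adjusted p = 0.00512). Its intact values were all under the log2 minimum of 4.32, as was its mean of 3.87 over all replicates, so the size of the rise is uncertain. In nostril injury at 1 dpi *fthl29* read 3.01, 3.28 and 5.66, so that 1 replicate stood far above the other 2. Both calls at 2 dpi were lost without replicate 1 of the nostril injury group at 2 dpi (adjusted p = 0.0947 for *hmox1a* and 0.0607 for *fthl29*). They were also lost with only the compared groups in the fit (adjusted p = 0.151 and 0.0689). Between skull and nostril injury at 2 dpi 0 of the 21 genes were called, where 0% of all probe sets were. Ferroxidase *cp* and *fth1a*, the ferritin gene with the highest mean of the list, differed by -0.55 (SE 0.21, adjusted p = 0.335) and -0.07 (SE 0.08) in skull injury at 1 dpi. *bach1b*, from a gene pair whose mammalian counterpart represses haem oxygenase, differed by 0.64 (SE 0.20, adjusted p = 0.192).

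**Figure D5:**
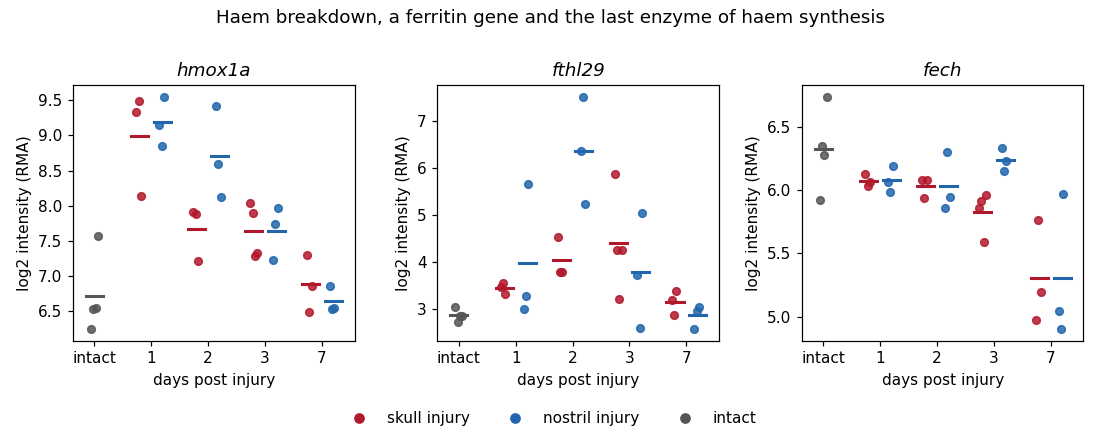
Log2 intensity (vertical axes) of the haem oxygenase gene *hmox1a*, the ferritin gene *fthl29* and the ferrochelatase gene *fech* in each replicate by days post injury. Points are replicates and bars are group means. *hmox1a* is high at 1 dpi after both injuries, *fthl29* at 2 dpi after nostril injury, and *fech* is low at 7 dpi after both injuries.

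At 7 dpi 3 of the 59 genes (5.08%) were called after skull injury, against 0.708% of all tested probe sets, and 5 of 59 (8.47%) after nostril injury, against 1.75%. At 3 dpi after skull injury 3 of 59 (5.08%) were called, fewer than the 7.93% of all tested probe sets. *fech*, which encodes ferrochelatase, the enzyme that places iron in haem, fell by 1.02 at 7 dpi after skull injury (SE 0.21, adjusted p = 0.0259) and by 1.02 after nostril injury (SE 0.21, adjusted p = 0.0129). It read 4.97, 5.76 and 5.19 after skull injury and 5.04, 4.90 and 5.97 after nostril injury, against 5.93, 6.35, 6.28 and 6.74 in intact fish. One nostril injury replicate overlapped with intact. The skull call was lost without intact replicate 2 or 4 or skull injury replicate 1 or 3 (adjusted p up to 0.158), and the nostril call without intact replicate 4 or nostril injury replicate 1 or 2 (adjusted p up to 0.109). *alas2*, the first enzyme of the same pathway, was at the intact level at 7 dpi, with differences of -0.0023 after skull injury (SE 0.24) and -0.09 after nostril injury (SE 0.24).

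Of the 59 genes, the others called at 7 dpi were the porphyrin transporter gene *abcb6a*, which fell by 0.57 after skull and by 0.47 after nostril injury, *bcl11aa*, which rose by 0.70 and by 0.62, and, after nostril injury, *tfr1b*, which fell by 0.75, and *dmtn*, which rose by 0.37. At 3 dpi after skull injury *abcb6a* fell by 0.37, *tcf3a* by 0.49 and the peroxiredoxin gene *prdx2* by 0.59. Of the haem handling genes, the biliverdin reductase gene *blvra* fell by 0.63 and by 0.65 at 7 dpi and by 0.43 at 3 dpi after skull injury, and the iron exporter gene *slc40a1* rose by 0.42 at 7 dpi after nostril injury. Each of these calls was lost without at least 1 replicate of its groups, with adjusted p up to 0.234 over all such fits, except those of *blvra* at 7 dpi after nostril and at 3 dpi after skull injury (adjusted p up to 0.0494).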

How the data were processed

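The deposited values are log2 intensities, 1 per probe set and array, which the authors made with RMA (median polish, sketch-quantile normalization) in Affymetrix Expression Console (version 1.3 per the labels' processing notes). Arrays have no depth. Precision is limited by 3 or 4 replicates a group, and detection calls were not used here. Probe sets were named from the platform annotation: 20806 carry 1 symbol, 855 several and 53551 none. The genome build of that annotation differs from that of the RefSeq gene table, so no positions are given.

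All 29 replicates in 9 groups were fitted with limma 3.58.1 in R 4.3.3 (lmFit, eBayes without trend, 20 residual and 3.51 prior degrees of freedom), and p-values were adjusted over the 40670 probe sets whose linear mean was above 20 in at least 1 group. The comparisons were each injured group minus intact, skull minus nostril injury at each time, and later times minus 1 dpi. The scripts were tested on simulated data. Figures were drawn with Python 3.11.15 and matplotlib 3.10.9.

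Lists hold 172 genes, 140 of them with a probe set of their own and 121 tested. The members and lists were chosen with earlier results of these data known. Named are all members, up to 4 genes per list that had the smallest p in skull injury at 1 dpi and those with the highest mean, the 6 genes most correlated with the members or the globin genes, markers of other cells, and genes of small counts of calls, the last chosen after their values were seen. Alternatives changed which samples were fitted, the technical arrays, further normalization, the filter, the moderation, array weights, replicate number as a block, the criteria of the methods (unadjusted p under 0.05 and a fold above 1.6), the other *hbaa2* probe set, and leaving out each replicate.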

Additional observations from a re-analysis of the deposited data

Results flagged for a closer look

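Of 20 combinations of a probe set and a group of 4 replicates, 1 had a replicate far from the others. On the second probe set shared by *hbaa1* and si:ch211-5k11.8, replicate 3 of skull injury at 3 dpi read 11.85, while the nearest of the other 3 replicates read 12.22. Its gap was 0.945 of the group's whole range, above Dixon's critical value for 4 samples. Chance gives such a gap in about 1 of 20 groups.

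At 3 dpi 3 of 80 tested genes of the red cell and haem handling lists (3.75%) differed between skull and nostril injury by the test of the difference itself. This share is near the 3.59% of all tested probe sets, and 0 of the 6 red blood cell genes differed. After skull injury, relative to nostril injury, the peroxiredoxin gene *prdx2* fell by 0.67 (SE 0.17, limma adjusted p = 0.0304), with overlap of the replicates. *soul5*, of a family of haem-binding proteins, fell by 0.98 (SE 0.26, limma adjusted p = 0.0426), and the transporter gene *flvcr2b* fell by 0.92 (SE 0.19, limma adjusted p = 0.0145). Replicates of the last pair of genes did not overlap, but the share of all tested probe sets without overlap was not counted for this comparison. All 3 calls were lost without nostril injury replicate 1 or 3, that of *prdx2* also without replicate 2, and that of *soul5* also without skull injury replicate 1, 3 or 4 (adjusted p up to 0.210). These 3 genes were singled out after their values were seen.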

How the results depend on the processing

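Against 17 alternatives the rise of *klf1* in skull injury at 1 dpi held (adjusted p up to 0.0327), and 0 of 6 members were called under every alternative in the comparisons of nostril injury with intact, of skull injury at 2, 3 and 7 dpi with intact, of skull with nostril injury at 2, 3 and 7 dpi, and of later with first-day nostril injury, apart from the criteria of the methods, which use no adjustment. Without 1 replicate at a time, the called members numbered 1 to 2 in skull injury at 1 dpi against intact (3 with all replicates), 0 to 1 in skull against nostril injury at 1 dpi (0), and, in skull injury against its 1 dpi, 0 to 1 at 2 dpi (1), 1 to 3 at 3 dpi (3) and 1 to 2 at 7 dpi (2). Skull against nostril injury at 1 dpi gave 1 member with array weights and 2 by the criteria of the methods. With only the compared groups in the fit, skull injury against its 1 dpi gave 0 members at 2, 3 and 7 dpi, and by the criteria of the methods 3 at 2 dpi and 5 at 7 dpi. At 7 dpi it gave 1 after further quantile normalization, with arrays centred on their medians, with no filter, and with the replicate block.

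Replicate numbers did not pair the samples: same-numbered replicates of different groups had a median correlation of -0.0022 in their deviations, 6 of 109 pairs were over 0.1, and 6 of 29 replicates correlated best with their own number. With that replicate block 2 members were called in skull injury at 1 dpi, as *gata1a* missed the threshold (adjusted p = 0.0580), and *slc4a1a* turned to 0.036 in nostril injury at 1 dpi. Uncalled differences also changed sign without 1 replicate: *hbaa2* in skull against nostril injury at 1 dpi lay between -0.0028 and 1.01, and in nostril injury at 1 dpi against intact *alas2* lay between -0.14 and 0.22, *hbba2* between -0.11 and 0.63 and *slc4a1a* between -0.21 and 0.040. Of 43 called single-gene results, 4 held under every alternative: *klf1*, *coro1a* and *laptm5* in skull injury at 1 dpi and *hmox1a* in nostril injury at 1 dpi. With only the compared groups in the fit, 31 of the 43 were lost. The cause of these changes was not tested. The low signal of *klf1*, *gata1a* and *slc4a1a* limits what these arrays resolve.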
